A study of Mus musculus with 2 samples.

Results

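The genes described here encode the chains of the mouse IL-4 receptors and the kinases that those chains carry: Il4ra, Il13ra1, Il2rg, Jak1, Jak2, Jak3 and Tyk2. They were chosen by name, as 7 of the 21887 protein-coding genes of the RefSeq table for GRCm38. Every deposited CUT&Tag peak with its summit in one of these genes or within 50 kb of either gene end was taken, which gave 50 of 149349 peaks in untreated cells and 109 of 240661 peaks in IL-4-treated cells. CUT&Tag uses an antibody, here against the phosphatase PHLPP1, to bring a transposase to chromatin, so that DNA close to the bound protein is tagged and sequenced. Both libraries came from mouse primary bone marrow-derived macrophages grown with M-CSF, a macrophage growth factor, at 20 ng/ml. The untreated group was 1 library, and the IL-4 group was 1 library of cells that received 20 ng/ml IL-4 for 4 h. The series describes the profiled cells as wild-type, and the sources used here give no age, sex or number of animals. With 1 library per group no difference could be tested, so the values of both lists are given side by side.

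IL-4 first binds the IL-4 receptor α chain, encoded by Il4ra. That chain then pairs either with the common γ chain, encoded by Il2rg, or with the IL-13 receptor α1 chain, encoded by Il13ra1. The chains have no enzyme activity of their own: JAK1 sits on the α chain, JAK3 on the common γ chain, and TYK2 or JAK2 on the IL-13 receptor chain. Once brought together, the kinases phosphorylate the receptor and the transcription factor STAT6, which drives alternative activation in macrophages.

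After IL-4, 5 of the 7 genes had a peak with its summit within 1 kb of a gene end, and without IL-4 none had. The 5 were Il4ra, Jak1, Jak2, Jak3 and Tyk2, so all 4 kinase genes had such a peak and 1 of the 3 receptor chain genes did. The Jak1 summit lay close to the limit, 992 bp from the 3′ end, and within 0.5 kb Jak1 had none. For scale, 35.5% of all genes had a peak at an end with IL-4 and none without it, 49.3% had one with IL-4 whatever the other list held, and 22.7% had one without IL-4. All 5 autosomal members had such an IL-4-only peak, against 36.9% of autosomal genes. That subset was added after seeing the data and leaves out exactly the 2 genes without a gene-end peak. The peaks were weak: only those of Jak2 and Jak3 passed a q value of 0.05 in the authors' calling, where 16.8% of all genes were IL-4-only. At that threshold 4.02% of all genes had an untreated peak at an end. RefSeq promoter entries give the strand of 17492 of these genes, which tells the start of a gene from its 3′ end. For Il4ra, Jak2, Jak3 and Tyk2 the IL-4 peak lay at the start, and for Jak1 at the 3′ end. Of all genes with a strand, 39.9% had an IL-4 peak within 1 kb of the start and 18.8% within 1 kb of the 3′ end, so 4 and 1 of 7 are read against those shares.

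The promoter sequences of Jak2, Tyk2 and Il4ra are shown because the IL-4 peaks reached into them. All are from RefSeq, GRCm38.p6, written 5′ to 3′ along the gene and cut at the outermost annotated gene start. Capitals mark 41 bases centred on the peak summit in Jak2 (chr19:29251553-29251802, plus strand) and Tyk2 (chr9:21131394-21131525, minus strand), and the 10 bases covered by the peak in Il4ra (chr7:125552021-125552270, plus strand).
Jak2: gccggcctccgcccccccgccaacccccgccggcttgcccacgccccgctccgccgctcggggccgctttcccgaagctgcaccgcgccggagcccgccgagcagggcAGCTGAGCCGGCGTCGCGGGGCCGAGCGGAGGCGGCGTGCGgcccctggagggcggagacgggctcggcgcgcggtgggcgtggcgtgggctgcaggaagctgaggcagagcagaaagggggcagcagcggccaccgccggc
Tyk2: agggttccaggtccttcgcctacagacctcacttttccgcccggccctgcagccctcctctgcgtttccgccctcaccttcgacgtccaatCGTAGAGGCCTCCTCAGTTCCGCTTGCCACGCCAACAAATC
Il4ra: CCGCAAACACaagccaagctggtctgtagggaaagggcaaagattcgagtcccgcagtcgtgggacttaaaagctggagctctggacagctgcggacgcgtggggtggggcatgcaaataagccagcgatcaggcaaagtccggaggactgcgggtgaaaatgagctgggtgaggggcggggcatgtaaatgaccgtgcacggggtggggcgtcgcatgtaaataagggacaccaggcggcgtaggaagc

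The 300-base promoter entries of 5 of the 7 genes were CpG-rich, defined here as at least 50% G and C with an observed-to-expected CpG ratio of at least 0.6. The Jak2 entry had the highest G and C content at 81.0%, with 44 CpG dinucleotides and a ratio of 0.89. Il13ra1 followed at 71.0% with a ratio of 0.74, Jak1 at 64.7% with 0.95, Il4ra at 62.0% with 0.93 and Tyk2 at 58.0% with 0.94. Jak3, with 54.3% and a ratio of 0.41, and Il2rg, with 50.3% and 0.16, fell outside this class. An IL-4 start peak was present for 3 of the 5 CpG-rich members and for 1 of the 2 others, and over all genes with a strand for 56.9% of CpG-rich and 25.6% of other promoters. Neither TTC and GAA separated by any 3 bases, the interferon-γ-activated sequence bound by several STAT proteins, nor TTC and GAA separated by any 4 bases, the spacing preferred by STAT6, occurred in any of the 7 entries. Both motifs read the same on either strand. They were found in 8.30% and 6.95% of all 32851 RefSeq promoter entries of this length.

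Among the receptor chains, Il4ra was the only one with a gene-end peak. Il4ra lies on chromosome 7 from 125552271 to 125579474. Its IL-4 peak ran from 125551822 to 125552030, with the summit 304 bp before the start. It held 4 fragments at the summit (exact Poisson 95% interval 1.09 to 10.2) at a −log10 q of 0.753, and the untreated list had no peak within 1 kb of either end. The fragment number is the whole number that fits a peak's deposited fold and p value, and its interval covers counting error only. Because a peak needed at least 4 fragments to be listed in the untreated library at its lowest background, a site with 3 fragments there would not appear.

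The strongest site around Il4ra was not at the gene. An IL-4 peak from 125515823 to 125515980, with the summit 36364 bp before the start, held 10 fragments (4.80 to 18.4) at a −log10 q of 4.90, the highest value among the peaks of all 7 genes in either list. It lay outside protein-coding genes and did not overlap an untreated peak. The nearest untreated summit was 651 bp away, in a peak of 5 fragments. Nearer to the gene, the 10 kb before the start held 5 IL-4 peaks of 4 to 6 fragments and 2 untreated peaks of 4 and 6. Inside the gene an IL-4 peak of 7 fragments (2.81 to 14.4) and a −log10 q of 2.15 lay 9201 bp from the start, and an untreated peak of 5 fragments lay 730 bp from it without overlap. In total Il4ra had 21 IL-4 peaks and 6 untreated peaks. The window also takes in part of Il21r, the gene of another receptor chain that pairs with the common γ chain, which held 3 of the IL-4 and 2 of the untreated peaks.

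Il13ra1 and Il2rg, both on chromosome X, had few peaks in either list. Il13ra1, from 36112108 to 36171262, had no untreated peak and 2 IL-4 peaks, of 3 and 4 fragments. They lay 20434 bp before the start and 106753 bp past it, so neither was in the gene. Il2rg, from 101264385 to 101268255 on the minus strand, had 1 untreated peak of 5 fragments and 4 IL-4 peaks of 3 to 8 fragments, all upstream of its start. The strongest of these held 8 fragments (3.45 to 15.8), had a −log10 q of 3.40 and lay 5823 bp before the Il2rg start. Its summit was 13 bp before the start of Med12, which encodes a subunit of the Mediator complex, on the opposite strand.

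Peaks were sparse across the whole of chromosome X, so both genes are read against that chromosome. The median X gene had 1.95 IL-4 peaks and 0 untreated peaks per 100 kb of its window, against 11.1 and 5.77 for autosomal genes. Il13ra1 had 1.26 and 0, and Il2rg 3.85 and 0.963. No untreated peak at all stood in the window of 50.3% of the 966 X genes, against 3.45% of autosomal genes. With IL-4, 16.3% of X genes and 51.5% of autosomal genes had a peak at an end. The part of X linkage in the low numbers at Il13ra1 and Il2rg was not tested.

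Among the kinases, Jak3 had the strongest gene-end peak. Jak3, whose protein pairs with the common γ chain, lies on chromosome 8 from 71676383 to 71690577. Its IL-4 peak ran from 71676523 to 71676704 with the summit 247 bp inside the gene, and the near edge of the peak was 91 bp from the RefSeq promoter entry. It held 8 fragments (3.45 to 15.8) at a −log10 q of 2.90. As many fragments at a gene end were found in the IL-4 list for 7.91% of all genes. The nearest untreated peaks lay on either side of this site, 2091 bp before the start and 2388 bp after it, with 5 fragments each.

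Jak3 also had the untreated peaks that were most numerous and strongest of the 7 genes. Its window held 15 untreated and 18 IL-4 peaks, and the untreated density of 13.1 per 100 kb was reached by 2.13% of all genes. The strongest untreated peak, from 71697529 to 71697778, held 10 fragments (4.80 to 18.4) at a −log10 q of 3.09. It lay 7097 bp past the 3′ end of Jak3, inside the neighbouring gene B3gnt3, and the closest IL-4 summit was 2394 bp away. By side, 11 IL-4 and 6 untreated peaks were upstream of the gene, and 5 and 8 were downstream. All 11 upstream IL-4 peaks fell inside Unc13a, which encodes a synaptic vesicle priming protein, as did 4 of the untreated peaks. At the start of Unc13a the lists shared a site, with 6 IL-4 and 4 untreated fragments and summits 4 bp apart.

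Jak2, whose protein serves many cytokine receptors, lies on chromosome 19 from 29251803 to 29313095. Its IL-4 start peak was wide, at 645 bp from 29251178 to 29251822, with the summit 122 bp before the start. It held 6 fragments (2.20 to 13.1) at a −log10 q of 1.69 and covered 270 of the 300 bases of the promoter entry. The gene body held 10 IL-4 peaks of 3 to 6 fragments and 3 untreated peaks of 4 fragments each. With 18 IL-4 and 4 untreated peaks in all, Jak2 had a log2((IL-4 + 1)/(untreated + 1)) of 1.93, which 7.07% of all genes reached and which was the highest of the 7 genes for this window. At the far edge of the window an IL-4 peak of 10 fragments (4.80 to 18.4) and a −log10 q of 4.41 lay 186 bp before the start of Cd274, which encodes the immune checkpoint ligand PD-L1. Cd274 had no end peak without IL-4, and this peak lay 110118 bp from the Jak2 start.

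Jak1 is the longest of the genes, on chromosome 4 from 101151974 to 101265282 on the minus strand, and encodes the kinase of the IL-4 receptor α chain. It had no start peak in either list. Its IL-4 gene-end peak, from 101152720 to 101152999, held 4 fragments at a −log10 q of 0.753. The summit of that peak lay 992 bp inside the 3′ end and also within 1 kb of the 3′ end of Raver2. The body held 12 IL-4 peaks of 3 to 6 fragments and 6 untreated peaks of 4 to 6. Of the other peaks in the window, 8 IL-4 and 5 untreated peaks fell inside Raver2. None of the 23 IL-4 and 12 untreated peaks of Jak1 overlapped a peak of the other list. Such overlap was rare everywhere, at 5.42% of the whole IL-4 list and 8.73% of the whole untreated list. The closest summits of the lists, both in the body, were 116 bp apart, with 6 IL-4 and 4 untreated fragments.

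Tyk2, on chromosome 9 from 21104068 to 21131393 on the minus strand, encodes a kinase of the IL-13 receptor α1 chain. Its IL-4 start peak, from 21131318 to 21131623, held 4 fragments (1.09 to 10.2) at a −log10 q of 0.753, with the summit 21 bp before the start. In the body, 5 IL-4 peaks held 3 to 6 fragments and 4 untreated peaks held 4 to 7. At 1 body site the lists overlapped by 136 bp, with 3 IL-4 and 6 untreated fragments. Tyk2 had the highest IL-4 density of the 7 genes, 18.1 peaks per 100 kb, which 3.63% of all genes reached. The region is dense in genes, and parts of Zglp1, Fdx2, Raver1, Cdc37 and Pde4a fall in its window.

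**Figure D1:**
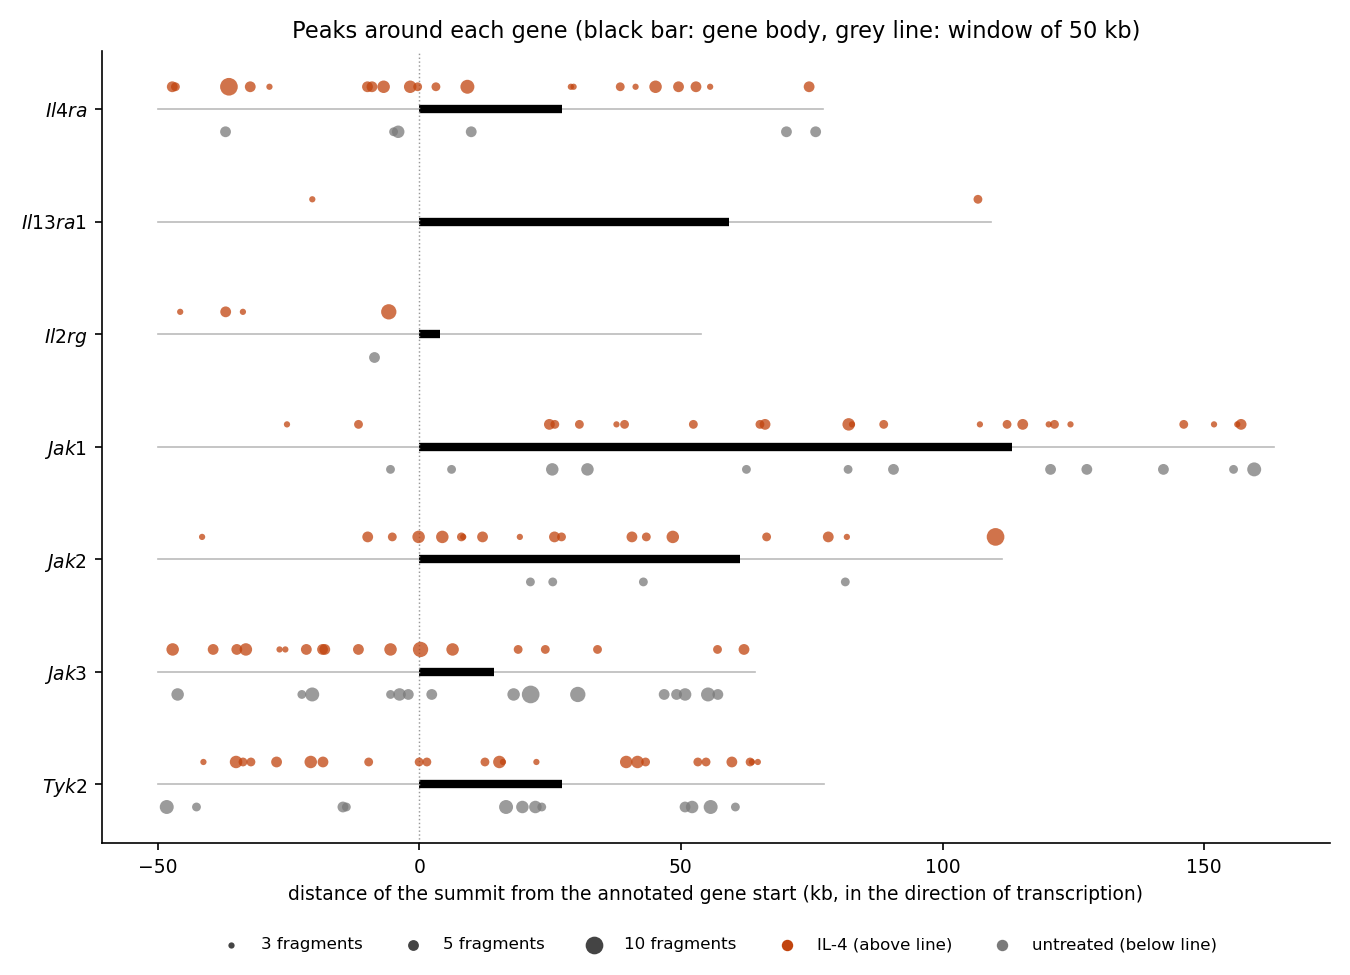
Each row is 1 gene, with the distance of each summit from the annotated start in kb on the horizontal axis, IL-4 peaks above the line, untreated peaks below it and the point area increasing with the fragments at the summit. IL-4 points stand at the start of Il4ra, Jak2, Jak3 and Tyk2 where no untreated point does, and the largest points are the IL-4 peaks 36364 bp before Il4ra and at Cd274 and the untreated peak past Jak3.

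The local background of the untreated library was raised at Jak3 and Tyk2. Over their untreated peaks its median was 1.15 and 1.20 fragments, against 0.936 at Il4ra, Il2rg, Jak1 and Jak2, which is the lowest value in that library. In the IL-4 library the medians ran from 0.643 to 0.790. Among the listed untreated peaks of their windows, the highest background was 1.29 at Jak3 and 1.62 at Tyk2. An untreated peak there needed at least 5 fragments to pass p 0.01, so a weak untreated site could go unlisted. In the IL-4 library the highest such backgrounds were 1.01 at Jak3 and 1.21 at Tyk2, where at least 4 fragments were needed. At least 4 were also needed at the highest IL-4 backgrounds of Il4ra (1.05) and Jak2 (0.866). The lowest backgrounds, 0.936 and 0.643 fragments, also set different minimums for the lists, 4 fragments without IL-4 and 3 with it. Fragment numbers set side by side are not scaled for this difference.

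All 7 genes had more peaks in the IL-4 list, as did 85.5% of all genes. Ordered by the log2 ratio, Jak2 (1.93) came first, followed by Il4ra (1.65), Il13ra1 (1.58), Il2rg (1.32), Jak1 and Tyk2 (0.88 each) and Jak3 (0.25). The values of Il13ra1 and Il2rg rest on 2 and 5 peaks in all. This order depended on the setting. Within 100 kb Il13ra1 (2.58) and Il2rg (2.32) stood above Jak2 (1.64), and at a q of at most 0.05 Il4ra (2.58) stood above Jak2 (2.32). The median of the 7 was 1.32, against 0.79 over all genes, and 4 of the 7 reached a 2-fold ratio against 40.6% of all genes. That median is the value of Il2rg, and the X genes Il13ra1 and Il2rg are among the 4. The X genes had a median of 1.00, with 558 of 966 at 2-fold or more. For autosomal genes these values were 0.81 and 8335 of 20665. Together the windows held 68.6% IL-4 peaks (exact Clopper-Pearson 95% interval 60.7 to 75.7, which covers counting error only), and the windows of all genes, where a peak counts once for each window it is in, held 63.9%. Peaks of at least 4 fragments could be listed in both libraries at their lowest backgrounds, but not everywhere in the untreated windows of Jak3 and Tyk2. Counting only those left 16 IL-4 peaks against 6 untreated at Il4ra, 14 against 4 at Jak2 and 15 against 12 at Jak1. The same count was 18 against 12 at Tyk2, 16 against 15 at Jak3, 2 against 1 at Il2rg and 1 against 0 at Il13ra1. At Jak3 the order turned when the window was narrowed to 10 kb, with 5 IL-4 and 6 untreated peaks.

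**Figure D2:**
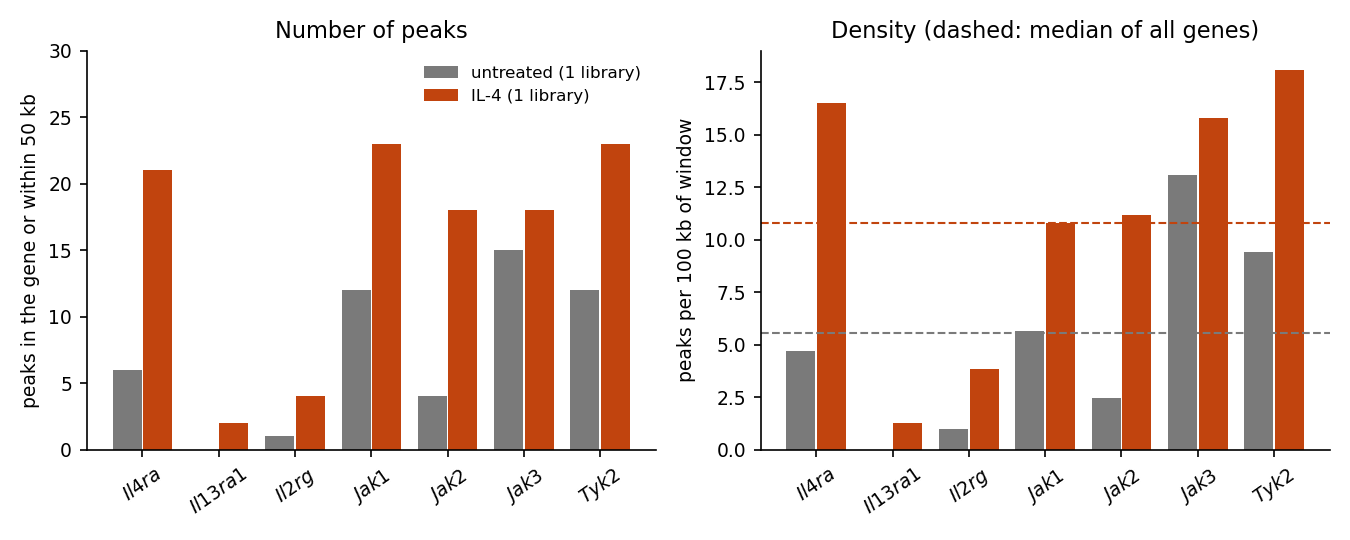
Bars give, for each gene, the number of peaks in the gene or within 50 kb (left) and the same per 100 kb of window (right) in the untreated and the IL-4 library, 1 library each. Il4ra and Jak2 show the widest gaps, 21 against 6 and 18 against 4, and Jak3 nearly equal bars, 18 against 15, while the dashed lines mark the medians of all genes, 10.8 with IL-4 and 5.56 without.

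**Figure D3:**
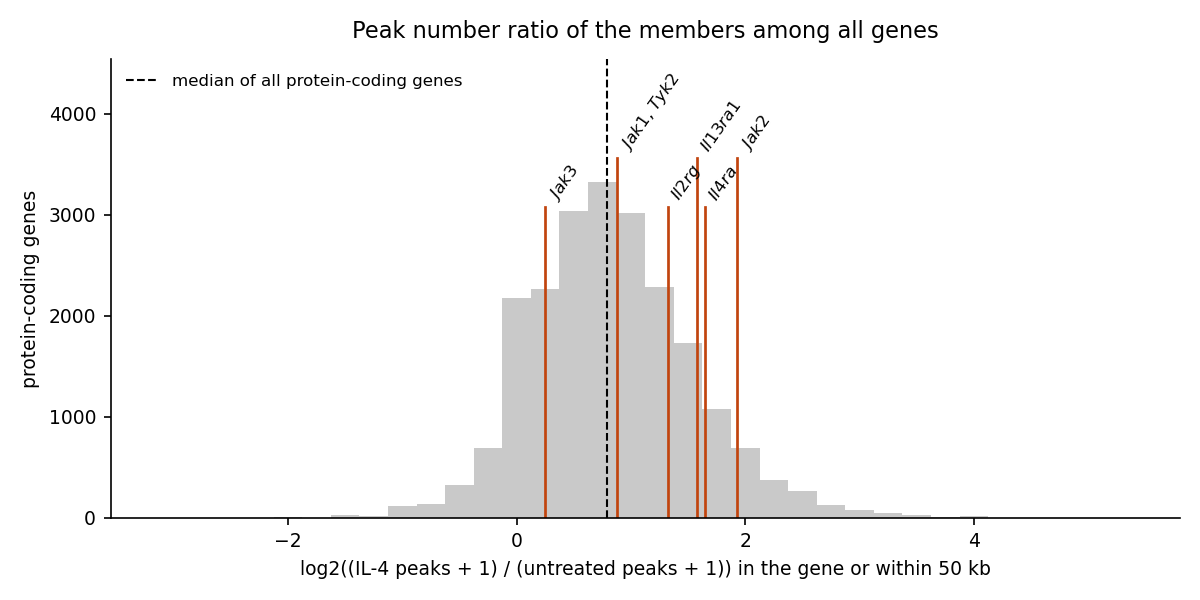
The histogram shows the log2 ratio of IL-4 to untreated peak numbers, each plus 1, for all 21887 protein-coding genes, with the median dashed and the 7 genes as vertical lines. Jak2 at 1.93 lies in the upper part of the distribution and Jak3 at 0.25 lies below the median of 0.79.

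Most peaks around these genes rested on few fragments and were not repeated between the lists. With IL-4 the summits held 3 to 10 fragments with a median of 4, and without it 4 to 10 with a median of 5. At a q of at most 0.05 there were 19 of 109 IL-4 peaks (17.4%, against 12.5% of the whole list) and 6 of 50 untreated peaks (12.0%, against 14.6%). Past a −log10 q of 2 there were 5 IL-4 peaks and 1 untreated peak, all described above, and of these the Jak3 start peak alone lay at an end of a receptor or kinase gene. Overlap of at least 1 bp with the other list was found for 3 IL-4 peaks (2.75%, against 5.42% of the whole list) and 3 untreated peaks (6.00%, against 8.73%). They lay at Jak3, with 2, and at Tyk2, with 1, and none was a gene-end peak.

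By position, the IL-4 peaks of the 7 genes were densest at the gene ends, as in all genes. The ends held 17.8 IL-4 peaks per 100 kb, the bodies 10.3 and the flanks 10.8, and the same values over all genes were 17.0, 10.1 and 10.3. The end value rests on 5 peaks. In the untreated list the ends held 0 peaks, the bodies 5.13 per 100 kb and the flanks 5.10, against 6.70, 6.27 and 5.64 over all genes.

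The wider pathway was described with a pair of lists. Of 24 genes that act downstream of the receptor or restrain it, 15 had an end peak with IL-4 alone, 4 with and without it, 3 without it alone and 2 in no list. Of 28 genes of other cytokine receptor chains, the same classes held 15, 4, 2 and 7 genes. Over all genes they held 35.5%, 13.8%, 8.93% and 41.8%. At a q of at most 0.05, 6 genes of each list were IL-4-only, against 16.8% of all genes. At the same threshold 1 gene of each list was untreated-only, against 551 of all 21887 genes. The median log2 ratio of peak numbers was 1.20 for the downstream genes and 1.07 for the receptor chains. Neighbours such as Ifnar2 and Il10rb share peaks and are not independent.

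Several pathway genes had end peaks with more fragments than those of the receptor and kinase genes. Il3ra, encoding the IL-3 receptor α chain, had an IL-4 peak on chromosome 14 from 14345388 to 14345970 that rested on 13 fragments (6.92 to 22.2), its −log10 q being 5.47, and no untreated end peak. Ifngr2, encoding the interferon-γ receptor chain that carries JAK2, had 12 IL-4 fragments (6.20 to 21.0) at 4.39 and 4 untreated fragments (1.09 to 10.2) at 0.408, in peaks on chromosome 16 that did not overlap. Downstream of the receptor, the transcription factor gene Stat3 had 18 IL-4 fragments at its start, Socs1, which encodes an inhibitor of JAK kinases, had 12 and the adaptor gene Shc1 had 10. Of these 3 only Socs1 had an untreated end peak, of 6 fragments, which overlapped its IL-4 peak. Stat6 had 9 IL-4 fragments at its 3′ end, within 1 kb of the 3′ end of Nab2. The IL-4 fragments of Jak3, 8, and of Jak2, 6, had intervals that overlapped the IL-4 intervals of all the pathway genes named here. Those intervals were 10.7 to 28.4 for Stat3 and 6.20 to 21.0 for Socs1. For Shc1 and Stat6 they were 4.80 to 18.4 and 4.12 to 17.1.

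Of the 6 other receptor chain genes whose proteins work with the common γ chain, 4 had an IL-4 gene-end peak, against 49.3% of all genes. Il2ra and Il2rb had none in either list, Il7r and Il9r had 4 IL-4 fragments each and Il15ra 3, all in the IL-4 list only. Il21r had peaks in both lists at its 3′ end, with 5 IL-4 and 6 untreated fragments. Il13ra2, encoding a decoy receptor for IL-13 and also on chromosome X, had an untreated-only peak of 4 fragments. By peak numbers in both libraries, the pathway genes nearest to the median of the 7 genes, 18 IL-4 and 6 untreated peaks, were Il15ra and Stat3 with 16 and 6 each, followed by Ifnar1 and Il10rb with 18 and 7 each. Ifnar1 and Il10rb lie close together and count many of the same peaks, and 2 libraries allow no more than this comparison of levels.

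**Figure D4:**
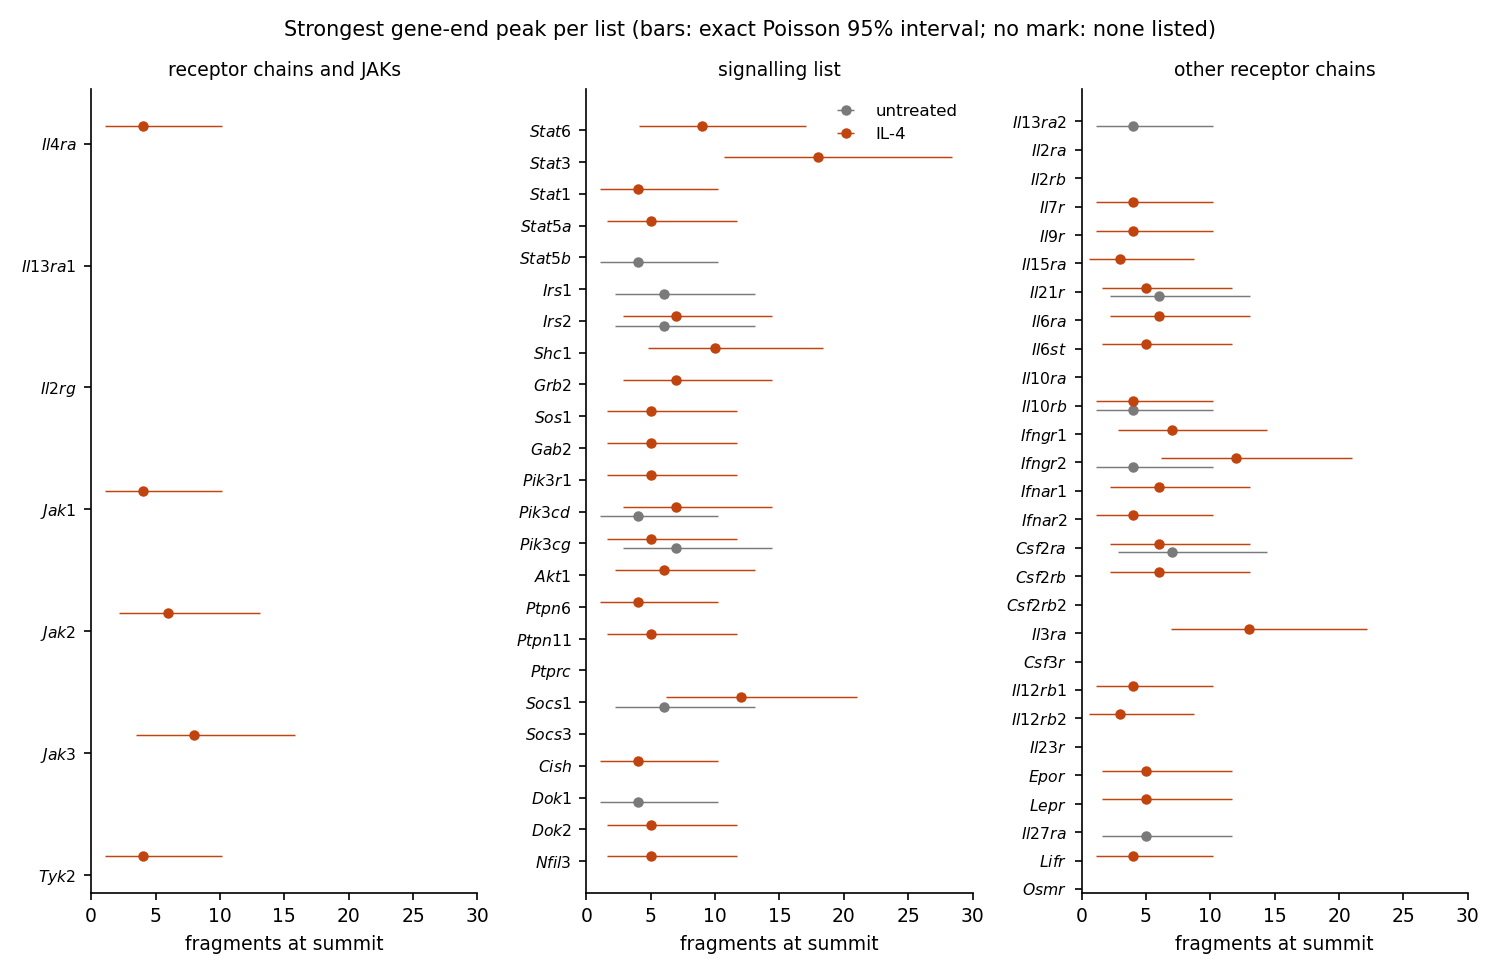
Points give the summit fragments of each gene's strongest end peak per list, with exact Poisson 95% intervals as bars and no mark where no peak was listed. The receptor and kinase genes (left) have IL-4 points of 4 to 8 fragments and no untreated point, and Stat3 with 18, Il3ra with 13, and Ifngr2 and Socs1 with 12 each stand highest among the pathway genes.

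Genes that mark the cell type were looked up in the same way, although PHLPP1 association does not measure expression and so cannot check the label. Of 10 macrophage marker genes 6 had an end peak with IL-4 and 0 without it. Of 16 T cell, B cell and neutrophil genes 8 had one with IL-4 and 6 without it. Over all genes the shares were 49.3% and 22.7%.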

How the data were processed

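The authors deposited 1 narrowPeak list per library, called per library. Per the submitters' processing notes, the tools included MACS2 2.2.7.1, Bowtie 0.12.8 and DiffBind, and the build was mm10; no roles are stated. The sources used here give neither the control nor the handling of duplicates. The deposited score equals the deposited −log10 p times 10, decimals dropped. The deposited fold is a ratio of the summit to the local background, and the deposited −log10 q is used only to describe and filter peaks.

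Fragments n and background b were solved from fold = (n + 1)/(b + 1) and p as the Poisson probability of more than n, matching −log10 p to 0.01 in 100% of entries. Intervals with several summits kept the summit of highest −log10 q. Total reads were not used here. Positions are counted from 1. Gene ends, and strand where a promoter entry gives it, came from RefSeq GRCm38.p6, the build of mm10. The 256 genes on Y had no peaks.

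The genes, lists and thresholds were chosen with earlier results of these data known. The CpG classes and the autosomal subset were added after seeing the data. Pathway and neighbouring genes were named for a gene-end peak at a −log10 q of at least 2, or for peak numbers nearest the members' median; the γ chain partners, Il13ra2, Unc13a and the other genes named only as lying in a window or sharing a peak were named outside that rule. The counting was tested on simulated data. Python 3.11.15, pandas 2.3.3 and SciPy 1.17.1 were used.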

Additional observations from a re-analysis of the deposited data

How the results depend on the processing

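Each group had 1 library, so no result has a replicate check. No paired analysis was possible because each group had 1 library. The 5 genes with an end peak in the IL-4 list alone became 2 at a q of at most 0.05 and 0 once −log10 q had to reach 5, where 2.58% of all genes had one. With other settings the count was 4 or 5, and within 0.5 kb of a gene end it was 4, with Jak1 dropped. Within 3 kb of a gene end, 1 gene of the 7, Jak3, had an untreated peak, of 5 fragments, against 46.3% of all genes. The 5 IL-4 peaks at gene ends became 10 within 3 kb and 2 at a q of at most 0.05. The IL-4 share of peaks in the windows was 76.0% at that q and 59.3% with lists of equal length, where all genes gave 64.2% and 52.5%. The log2 ratio of Jak3 was -0.22 within 10 kb, and that of Il13ra1 was 2.58 within 100 kb. The 15 IL-4-only genes among the 24 of the downstream list became 6 at a q of at most 0.05, against 16.8% of all genes, and 8 within 3 kb, near the 34.9% of all genes. The 15 of 28 receptor genes became 6 at that q. Apart from construction, which leaves fewer peaks or a wider window, the cause was not tested.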

Other observations

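Start peaks were also counted by promoter type over all protein-coding genes with a strand. Of 7998 genes with a CpG-rich promoter entry, 56.9% had an IL-4 peak within 1 kb of the start, against 25.6% of 9494 other genes. In the untreated list the shares were 16.6% and 11.6%. Il13ra1 and Jak1, both CpG-rich, had no start peak in either list, and Jak3, outside that class, had the strongest of the 7 genes. These classes were defined after the data were seen, and no difference was tested.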
